A study of Sus scrofa with 13 samples.

Results

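The genes described here are markers of macrophages and monocytes, the phagocytes that clear dead muscle after a myocardial infarction and remain in the scar and the surrounding heart. They were taken as every probe set whose platform gene symbol was one of 10 named genes: TYROBP, AIF1, FCER1G, LAPTM5, CD14, CD68, CD163, CSF1R, ITGB2 and MRC1. That gave 11 of the 23999 probe sets that are not controls, for 8 of the 10 genes. CD68 and CSF1R had no probe set under their symbol, and a search by gene ID and transcript accession added 0 probe sets, so they were not analysed here.

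Each of 13 pigs, female Sinclair miniswine, gave 1 drill biopsy of the heart, read on 1 Affymetrix porcine array. At an age of 3 months their infarct had been made by permanent ligation of diagonal branches of the LAD, a main coronary artery. In the stem cells group, 7 animals then received 50000000 cells, called MPCs in the protocol, in 2 ml saline over 5 sites of the border zone around the infarct. In the saline group, 6 animals received 2 ml saline in 5 border zone injections, and all 13 were sampled 4 months after the operation. All 13 animals thus had the infarct and the injections, and where each biopsy lay relative to the scar is not given in the sources used here. Array medians of intensity were 13.5 to 14, and the correlation between arrays was 0.936 to 0.986.

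As background, macrophages in the heart come from cells seeded before birth and from blood monocytes that enter after injury. TYROBP (also called DAP12) and FCER1G (the common gamma chain of Fc receptors) are small adaptors with an activation motif, the ITAM, through which surface receptors without a signalling tail reach the kinase SYK. ITGB2 is the beta2 integrin chain by which white blood cells adhere to vessel walls. CD14 presents bacterial lipopolysaccharide to the TLR4 receptor complex. CD163 takes up haemoglobin bound to haptoglobin, and MRC1, the mannose receptor, takes up glycoproteins and collagen fragments. LAPTM5 is a lysosomal membrane protein of white blood cells, and AIF1 (also called IBA1) bundles actin in macrophages.

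Of the 11 probe sets, 9 had a mean log2 intensity above the filter level of 3.36, the 40th percentile of all probe sets, and were tested. Every one of the 8 genes was tested through at least 1 of them. The second CD14 probe set had a mean log2 intensity of 2.33, under the highest mean of the 17 tag controls without porcine target, 2.58. The second LAPTM5 probe set averaged 2.78. Neither of these was tested. Values below are log2 intensities after GCRMA, and a difference is always stem cells minus saline. Fewer macrophages, fewer other white blood cells that express a gene, and less of its RNA per cell cannot be told apart in these biopsies. Intensities of different probe sets are not on a common scale, so levels are compared only within a probe set.

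The first question posed by the design was whether these genes differed after stem cells relative to saline alone. None of the 9 probe sets passed. The adaptors TYROBP and FCER1G, the integrin chain ITGB2 and the cytoskeletal AIF1 had lower means after stem cells, at 58.9% to 73.8% of the saline level, while CD14, the main CD163 probe set and MRC1 differed by less than their errors. By limma's test 0 member probe sets passed an adjusted p of 0.05, against 0 of 14399 probe sets in all, so the percent called was 0 over the whole table. At an unadjusted p under 0.05, 3 of 8 genes were lower and 0 were higher. Over all 5196 genes tested, with 1 probe set per gene, 8.95% were lower and 2.91% higher at that level. Over all 14399 probe sets the shares were 5.15% and 5.4%. Negative differences were found in 7 of the 8 genes, against 59.4% of all genes and 47.2% of all probe sets. The median difference of the 8 genes was -0.393, and that of all genes tested was -0.0539. In 0 of the 9 probe sets were the groups free of overlap, against 0.16% of all probe sets with every stem cells animal lower and 0.118% with every one higher. These genes were picked with earlier results of the same arrays known, so the counts describe them and are not support.

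**Figure D1:**
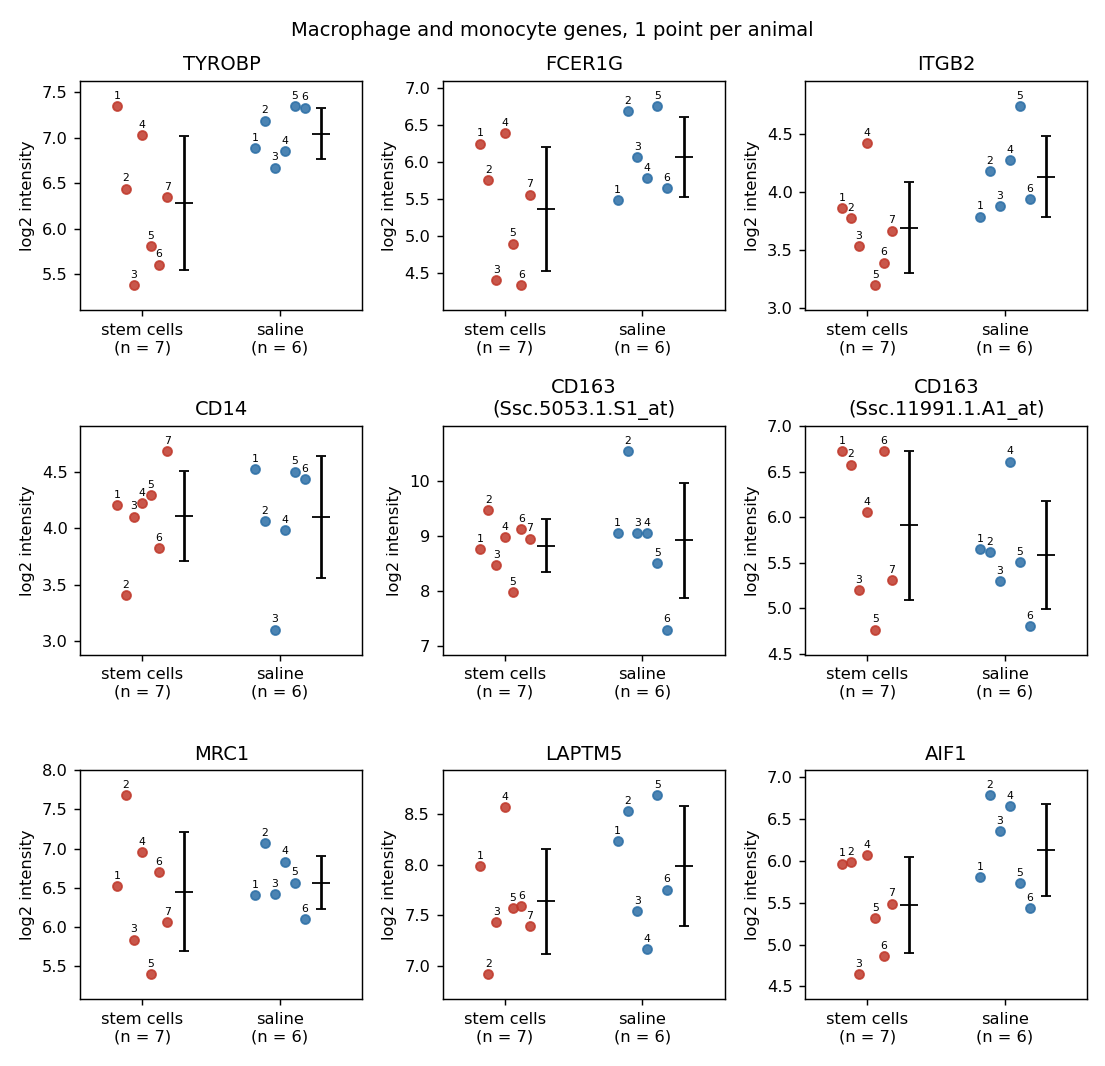
Log2 intensity (vertical axis) of the 9 tested probe sets in each animal, stem cells in red on the left and saline in blue on the right; numbers are replicate numbers, and black bars are the mean and SD of 7 and 6 animals. In all panels except those of CD14 and the brighter CD163 probe set, the lowest stem cells animal lies below every saline animal. Saline animals hold both the highest and the lowest value of that CD163 probe set.

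Among the signalling adaptors, TYROBP (NCBI gene 397405) had the smallest p of the members. Its log2 intensity was 5.38 at the lowest, 6.35 at the median and 7.35 at the highest in stem cells animals, against 6.67, 7.04 and 7.35 in saline animals. In the stem cells group 5 of 7 animals lay below every saline animal, but stem cells replicate 1 was level with the highest saline animal, so the groups overlapped. The 7 stem cells animals averaged 6.28 ± 0.73 (SD) and the 6 saline animals 7.05 ± 0.28 (SD). The difference of -0.76 ± 0.30 (SE) had a 95% interval of -1.39 to -0.14. It had an unadjusted p of 0.0204 and an adjusted p of 0.423 by limma, and an exact permutation p of 0.039 (two-sided, 1716 splits).

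FCER1G (gene 397406) ranged more widely. It was 4.34 at the lowest, 5.56 at the median and 6.39 at the highest after stem cells, against 5.49, 5.93 and 6.75 after saline. Stem cells replicates 3, 5 and 6 lay below all 6 saline animals, and the other 4 lay among them. The difference was -0.70 ± 0.36 (SE; 95% interval -1.46 to 0.06), with an adjusted p of 0.506 by limma and an exact permutation p of 0.111.

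Among surface receptors, ITGB2 (gene 396943) was measured not far above the filter level. It was 3.20 at the lowest, 3.67 at the median and 4.42 at the highest after stem cells, against 3.79, 4.06 and 4.74 after saline. As with TYROBP, 5 of 7 stem cells animals lay below every saline animal, and stem cells replicate 4 lay above 5 of the 6. The difference was -0.44 ± 0.19 (SE), with an adjusted p of 0.451 by limma and an exact permutation p of 0.0583.

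CD14 (gene 100037938) had nearly the same mean in both groups. It was 3.41 at the lowest, 4.21 at the median and 4.69 at the highest after stem cells, against 3.10, 4.25 and 4.52 after saline. The lowest animals, stem cells replicate 2 and saline replicate 3, were in different groups, and saline replicate 3 lay below the filter level. The difference was 0.0057 ± 0.24 (SE), and its interval of -0.50 to 0.51 leaves room for a change of that size either way. Its sign was negative with the arrays normalized again by quantiles (-0.0154) or centred on their medians (-0.0053), and without saline replicate 3 it was -0.19.

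CD163 (gene 397031) was read by 2 tested probe sets, which differed in sign. On the brighter one stem cells animals had 7.98 at the lowest, 8.95 at the median and 9.46 at the highest, against 7.30, 9.05 and 10.54 in saline animals. Saline animals held both the highest and the lowest value, with an SD of 1.05 (n = 6) against 0.48 (n = 7) after stem cells. The difference was -0.10 ± 0.39 (SE, adjusted p of 0.94 by limma). It turned to 0.22 without saline replicate 2 and was -0.42 without saline replicate 6.

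On the dimmer CD163 probe set stem cells animals had 4.77, 6.06 and 6.73, against 4.80, 5.56 and 6.61 in saline animals (lowest, median and highest). The difference was 0.33 ± 0.36 (SE, adjusted p of 0.754 by limma), between 0.17 without saline replicate 6 and 0.54 without saline replicate 4. Over the 13 animals the probe sets of this gene correlated at a Pearson r of 0.485 (permutation p of 0.0918) and a Spearman rho of 0.649 (permutation p of 0.0194). Without the 2 animals farthest from the median of the brighter probe set r was 0.661. The second LAPTM5 probe set followed the first at r = 0.731 (permutation p of 0.00564) although it was too dim to be tested, and the second CD14 probe set had r = -0.0952 with the first.

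MRC1 (gene 445003), the other scavenger receptor, spread over a wider range after stem cells. It was 5.39 at the lowest, 6.52 at the median and 7.68 at the highest after stem cells, against 6.10, 6.49 and 7.07 after saline. Stem cells animals held the 3 lowest values and also the highest. The difference was -0.11 ± 0.31 (SE, adjusted p of 0.914 by limma). It was -0.32 without stem cells replicate 2 and turned to 0.062 without stem cells replicate 5.

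Of the intracellular members, LAPTM5 (gene 100624193) was 6.92 at the lowest, 7.57 at the median and 8.57 at the highest after stem cells, against 7.17, 7.99 and 8.68 after saline. Both groups covered nearly the same range, with 1 stem cells animal below all saline animals. The difference was -0.35 ± 0.28 (SE, adjusted p of 0.661 by limma), and -0.21 without saline replicate 5 or -0.23 without stem cells replicate 2.

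AIF1 (gene 397271) was 4.64 at the lowest, 5.49 at the median and 6.07 at the highest after stem cells, against 5.43, 6.08 and 6.78 after saline. All 7 stem cells animals lay below the saline mean of 6.13 ± 0.55 (SD, n = 6), 3 of them below every saline animal, and 3 saline animals lay above every stem cells animal. The difference was -0.65 ± 0.29 (SE), with a 95% interval of -1.27 to -0.039. It had an adjusted p of 0.457 by limma and an exact permutation p of 0.0612.

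**Figure D2:**
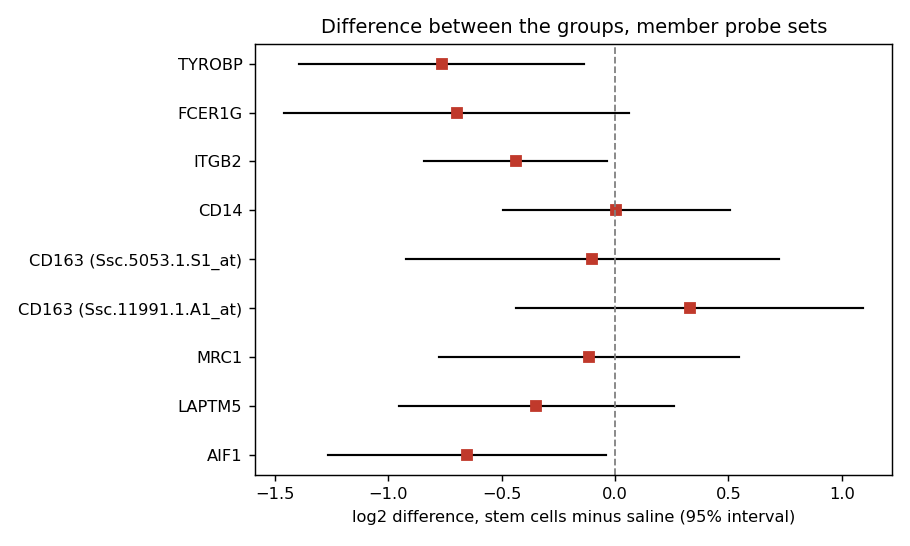
Log2 difference, stem cells minus saline (horizontal axis), for each tested member probe set, with the 95% interval from limma as a line. The intervals of TYROBP, ITGB2 and AIF1 end below 0 before adjustment for multiple tests, and those of the other 6 probe sets hold 0.

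The members varied more between animals than most genes did. Their SD over the 13 animals was 0.424 (ITGB2) to 0.776 (FCER1G), against a median of 0.33 over all probe sets tested, and FCER1G lay at the 94.7th percentile of that measure. FCER1G intensities spanned 5.32-fold from the lowest to the highest animal, and those of the brighter CD163 probe set 9.43-fold. Stem cells replicates 3 and 6 were each among the 2 lowest of 13 animals for 4 of the 8 genes, and saline replicates 2 and 5 were each among the 2 highest for 4 genes.

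The second question was whether the members varied together over the 13 animals. Of 28 gene pairs, with the brightest tested probe set of each gene, 25 had a positive Pearson r, with a median of 0.457. For scale, the median over all 13496610 pairs of the 5196 genes tested was 0.0324, and 5.83% of those pairs were above 0.6, against 6 of the 28 member pairs. Pairs share genes and arrays and are not independent. After Benjamini-Hochberg adjustment over the 28 pairs, 4 passed a permutation test of r with 100000 resamples, all within the set of TYROBP, FCER1G, ITGB2 and AIF1. Within that set TYROBP with AIF1 (r = 0.688, permutation adjusted p of 0.0543) and AIF1 with ITGB2 (r = 0.597, permutation adjusted p of 0.112) did not pass.

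TYROBP and FCER1G, the ITAM adaptors, were the most alike pair. Their Pearson r was 0.89 (permutation adjusted p of 0.0028) and their Spearman rho 0.801 (permutation adjusted p of 0.018), and r was 0.755 without the 2 animals farthest from the TYROBP median. With each animal set against its own group's mean, so that a difference between the groups could not enter, r was 0.86 (permutation adjusted p of 0.0168). It was 0.968 within the stem cells group (exact permutation p of 0.0014, n = 7) and 0.434 within the saline group (exact permutation p of 0.353, n = 6).

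FCER1G and ITGB2 followed at r = 0.832 and rho = 0.868 (permutation adjusted p of 0.006 and 0.0078). This pair held r = 0.78 on deviations from the group means (permutation adjusted p of 0.0168), 0.816 within the stem cells group and 0.732 within the saline group. Without the 2 animals farthest from the FCER1G median, r was 0.841.

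AIF1 with FCER1G (r = 0.792, rho = 0.742, permutation adjusted p of 0.0129 and 0.0287) and TYROBP with ITGB2 (r = 0.77, rho = 0.792, permutation adjusted p of 0.0133 and 0.018) also passed over all animals. On deviations from the group means neither pair passed, with r = 0.726 (permutation adjusted p of 0.0722) and r = 0.667 (permutation adjusted p of 0.0794). Without the 2 animals farthest from the median of the first gene, r was 0.652 and 0.745, and 2 of the 28 pairs passed in all. AIF1 with FCER1G had r = 0.96 within the stem cells group and 0.312 within the saline group (exact permutation p of 0.002 and 0.503). TYROBP with ITGB2 had 0.76 and 0.528 (exact permutation p of 0.0393 and 0.285).

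The scavenger receptors formed another pair. CD163 and MRC1 had r = 0.676 over the 13 animals (permutation adjusted p of 0.0654) and rho = 0.775 (permutation adjusted p of 0.0196). On deviations from the group means they passed, with r = 0.674 (permutation adjusted p of 0.0062). Within the stem cells group r was 0.91 (exact permutation p of 0.0062, n = 7), and within the saline group 0.871 (exact permutation p of 0.0361, n = 6). CD163 had r = 0.0748 and rho = -0.0853 with TYROBP (permutation p of 0.805 and 0.784). For this pair r was 0.315 within the stem cells group and -0.306 within the saline group (exact permutation p of 0.501 and 0.565), and it ran from -0.123 to 0.356 with 1 animal left out. With FCER1G CD163 had r = 0.324, between 0.1 and 0.448 with 1 animal left out. With AIF1 and ITGB2 CD163 had r = 0.562 and 0.195 (permutation adjusted p of 0.112 and 0.641). MRC1 had r = 0.569 with AIF1, 0.485 with ITGB2, 0.476 with FCER1G and 0.37 with TYROBP (permutation adjusted p of 0.112, 0.201, 0.203 and 0.353). The differences between these correlations were not tested.

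None of the CD14 pairs passed. Its r was -0.449 with MRC1 and -0.36 with CD163 (permutation adjusted p of 0.235 and 0.353), and its highest was 0.439, with LAPTM5 (permutation adjusted p of 0.235). With 1 animal left out, r ran from -0.642 to -0.238 with MRC1, from -0.457 to -0.29 with CD163 and from 0.281 to 0.582 with LAPTM5. AIF1 correlated with TYROBP at 0.916 within the stem cells group and at -0.462 within the saline group (exact permutation p of 0.0056 and 0.328), and the difference between the groups was not tested. Within the saline group AIF1 went instead with MRC1 (0.865) and CD163 (0.839, exact permutation p of 0.0222 and 0.0111, n = 6). After adjustment over the 28 pairs, 4 passed within the stem cells group and 0 within the saline group, where 3 had an unadjusted exact permutation p under 0.05.

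**Figure D3:**
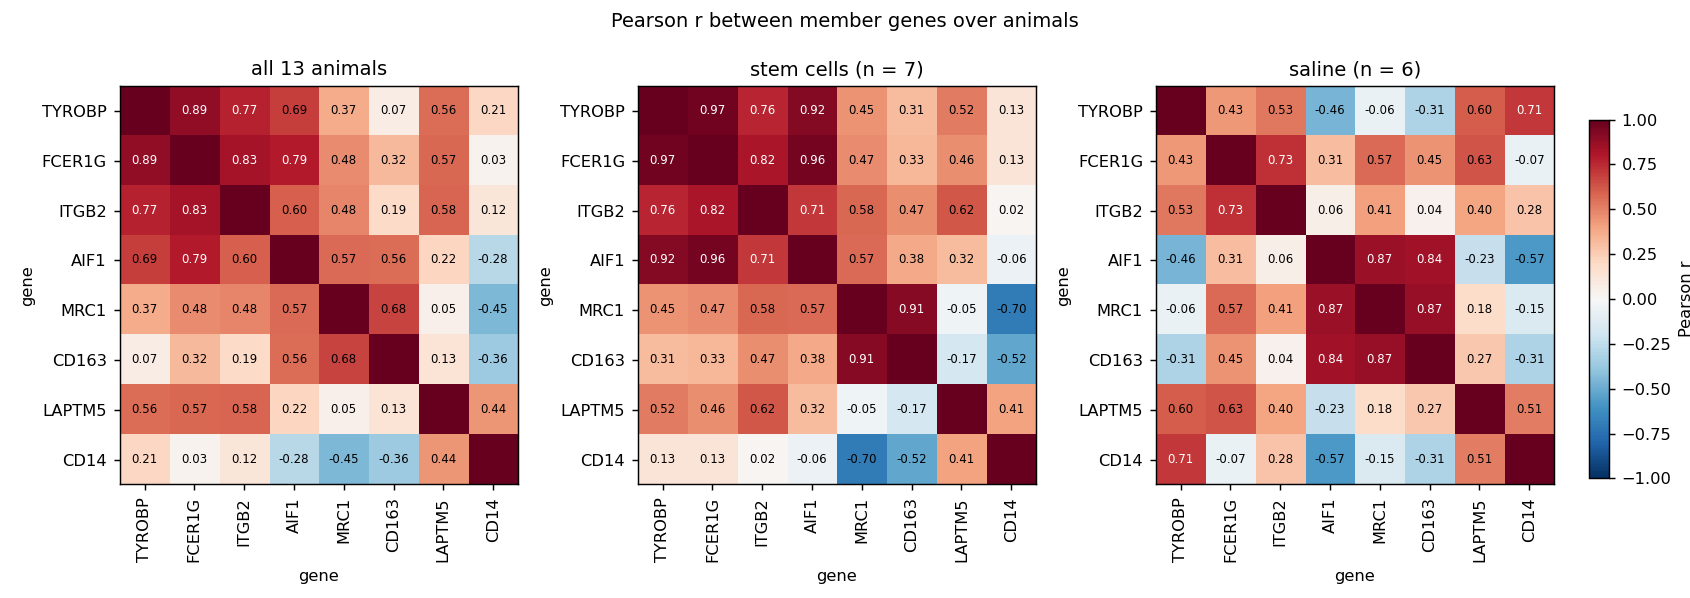
Pearson r for each pair of the 8 member genes over all 13 animals, over the 7 stem cells animals and over the 6 saline animals, with red for positive and blue for negative values. Over all animals TYROBP, FCER1G, ITGB2 and AIF1 share values of 0.597 to 0.89, and CD163 and MRC1 stand at 0.676 overall and above 0.8 within each group.

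**Figure D4:**
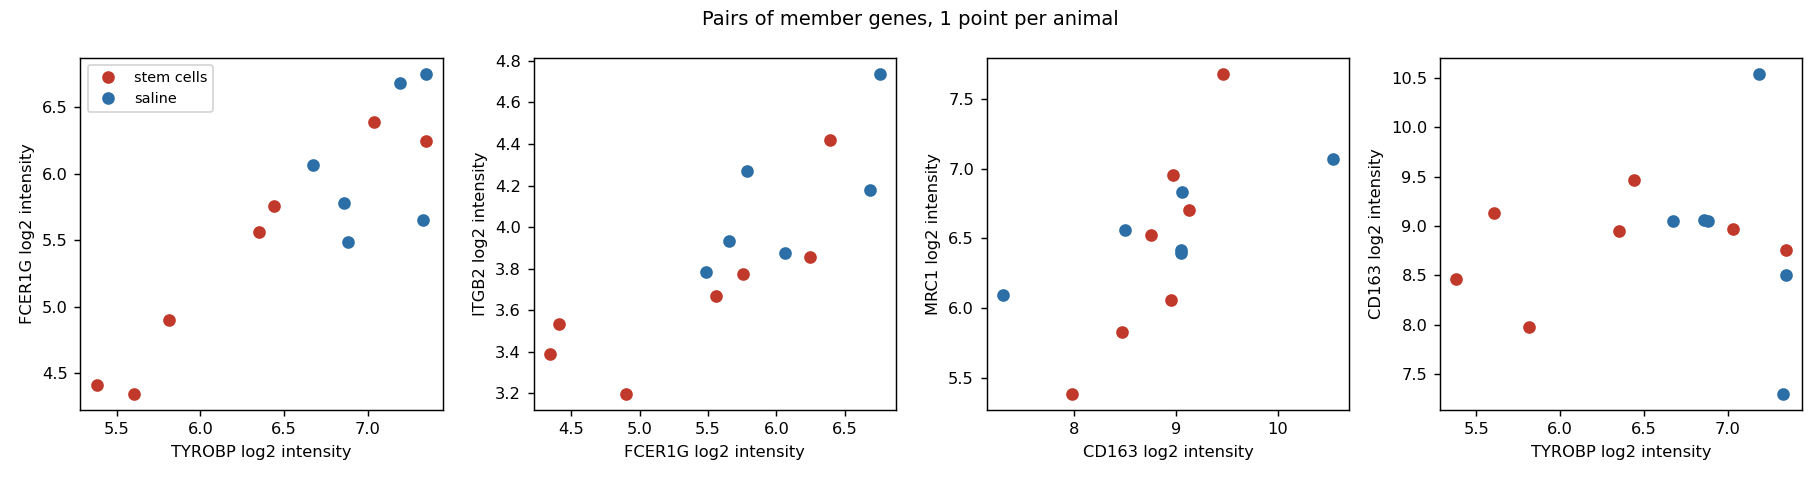
Log2 intensity of one gene against another, with each point an animal, for TYROBP and FCER1G, FCER1G and ITGB2, CD163 and MRC1, and TYROBP and CD163 (stem cells in red, saline in blue). The first 3 panels rise from left to right, whereas the points of the TYROBP and CD163 panel (r = 0.0748) do not line up.

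Each member was also set against the mean of 5 lists of marker genes on the same arrays. It was also set against the log2 3' to 5' ratio of EF1A, a measure of RNA integrity that rises as RNA degrades. These 48 relations were chosen after the member values were seen. The mean of 10 genes shared by most white blood cells passed with TYROBP (r = 0.839, rho = 0.858, permutation adjusted p of 0.0064 and 0.00688), FCER1G (r = 0.866, rho = 0.907, permutation adjusted p of 0.00336 and 0.00288) and ITGB2 (r = 0.857, rho = 0.846, permutation adjusted p of 0.00336 and 0.00688). On deviations from the group means r was 0.869, 0.867 and 0.874 for these genes (permutation adjusted p of 0.00816, 0.0142 and 0.0048). Without the 2 animals farthest from the median of the list it was 0.805, 0.827 and 0.735. The list mean was of plain log2 values, so genes of wide spread weighed more in it. PLEK had SDs of 1.21 in stem cells and 1.51 in saline animals, and CORO1A 0.23 and 0.24. With MRC1, LAPTM5 and AIF1 the same list had r = 0.606, 0.585 and 0.542, which did not pass (permutation adjusted p of 0.15, 0.178 and 0.194). With CD163 it had r = 0.2 (permutation adjusted p of 0.66), and with CD14 r = 0.103.

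None of the relations with the other lists or the EF1A ratio passed after adjustment. LAPTM5 and CD14 had r = 0.687 and 0.572 with the mean of 10 endothelial genes (permutation adjusted p of 0.0791 and 0.182). Without the 2 animals farthest from the median of that endothelial list, r was 0.385 and 0.32. With the endothelial list AIF1, CD163 and MRC1 had negative r, of -0.0268, -0.263 and -0.424. AIF1 had r = -0.739 and rho = -0.758 with the mean of 14 cardiomyocyte sarcomere genes (permutation adjusted p of 0.0506 and 0.0508), and -0.438 without the 2 animals farthest from that list's median. FCER1G and TYROBP had r = -0.675 and -0.623 with the same list (permutation adjusted p of 0.091 and 0.143), and -0.251 and -0.14 without those 2 animals. Of the 14 genes 3 were negative. The mean of this list was 13.90 ± 0.13 (SD) in the 7 stem cells animals and 13.82 ± 0.074 (SD) in the 6 saline animals. A covariate was also fitted, the sarcomere mean minus the fibroblast and matrix mean. With it the differences of TYROBP, AIF1, FCER1G and ITGB2 were -0.75, -0.60, -0.65 and -0.42, close to those without it. The fibroblast and matrix mean had SDs of 0.63 in stem cells and 0.68 in saline animals, so it dominated this covariate. That mean was nearly equal in the groups, at 8.62 in stem cells and 8.63 in saline animals. The covariate could therefore hardly move a group difference, and the part of tissue makeup was not tested by it. The sarcomere mean by itself was not used as a covariate, so its part in these differences was not tested. The log2 EF1A ratio was 0.815 ± 0.11 (SD) in the 7 stem cells animals and 0.947 ± 0.098 (SD) in the 6 saline animals (exact permutation p of 0.046, adjusted to 0.138 over 3 controls). TYROBP correlated with it at r = 0.645 and rho = 0.611 (permutation adjusted p of 0.128 and 0.204), and at 0.467 on deviations from the group means. The part of this ratio in the TYROBP difference was not tested. CD163 had r = -0.215 with the ratio over all animals, 0.67 within stem cells and -0.941 within saline (unadjusted exact permutation p of 0.103 and 0.0139 within groups). MRC1 had r = 0.341, 0.733 and -0.71 (unadjusted exact permutation p of 0.0581 and 0.108 within groups). The part of the ratio in the correlations of these 2 genes was not tested.

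The genes whose profiles were most like the mean standardized profile of the 8 members, among 5186 other genes, were PEA15 (r = 0.878 over 13 animals), ADGRG1 (0.868), LY96 (0.862), CD53 (0.86) and MCUB (0.855). CPT1A, CHD3, FCGR3A, HNRNPA1, ARHGDIB, S100A4 and FKBP11 completed the first 12, down to r = 0.836. On deviations from the group means the 12 held r of 0.781 to 0.866. LY96, a partner of TLR4, CD53 and ARHGDIB, found in most white blood cells, and FCGR3A, an Fc receptor that signals through FCER1G, are the 4 of these 12 that stood in the marker lists. Taken singly, a choice made after the pair correlations were seen, TYROBP was most like PEA15 (0.904), FCER1G (0.89) and GLRX (0.89). CD163 was most like GAPVD1 (0.917) and PDIA4 (0.889), and MRC1 like DESI2 (0.888), LCP1 (0.833), an actin bundler of white blood cells, and DAB2 (0.83), an endocytic adaptor.

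Other genes of the same pathways were taken from lists that did not hold the members. Over 8 lists of myeloid and leukocyte genes, 48 of 64 tested genes had a negative difference, against 59.4% of all genes, with a median of -0.164. At an unadjusted p under 0.05, 3 of the 64 were lower and 0 higher, against 8.95% and 2.91% of all genes, and 0 passed limma with adjustment over the whole table.

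For the adaptors, 7 of 23 listed ITAM receptors and kinases could be tested, with 3 negative and a median of 0.0149. FCGR3A had -0.38 ± 0.32 (SE), and LCP2, a scaffold downstream of SYK, 0.45 ± 0.46. For the integrin, 3 of 10 listed partners and ligands were tested, among them TLN1, which links integrins to actin, at -0.39 ± 0.26 and the ligand ICAM1 at 0.42 ± 0.39. ITGAM, the alpha chain of macrophages, had a mean of 2.75 and was not tested.

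Of 5 tested genes of the CSF1 axis and myeloid transcription factors all were negative, with a median of -0.0985. SPI1, which encodes PU.1, the transcription factor that directs myeloid cells, was 6.39 ± 0.41 (SD) in the 7 stem cells animals and 6.96 ± 0.34 (SD) in the 6 saline animals. Its difference was -0.58 ± 0.21 (SE; unadjusted p of 0.0166, adjusted p of 0.423 by limma), with 6 of 7 stem cells animals below the saline mean. In the lipopolysaccharide list, 5 of 7 tested genes were negative. LY96, the partner of TLR4, had -0.999 ± 0.51 (SE). The 2 positive genes were TLR4 itself, at 0.37 ± 0.40, and MYD88, at 0.12 ± 0.22.

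Among 7 tested genes of tissue-resident and scavenger macrophages, 6 were negative, with a median of -0.261. FOLR2, a folate receptor of resident macrophages, was 6.06 ± 0.34 (SD) in the 7 stem cells animals and 6.76 ± 0.44 (SD) in the 6 saline animals. All 7 stem cells animals lay below the saline mean, and the difference of -0.70 ± 0.22 (SE) had an unadjusted p of 0.0058 and an adjusted p of 0.396 by limma. HMOX1, which breaks down haem, had -0.61 ± 0.59, and the complement subunit C1QA -0.31 ± 0.32. The 1 positive gene of this list was LYVE1, at 0.18 ± 0.30. Of 10 tested monocyte and inflammatory genes 8 were negative, S100A9 among them at -1.40 ± 0.91, with a median of -0.162. The monocyte receptor CCR2 had a mean of 2.48, under the highest tag control, and was not tested.

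Among 15 tested genes of the phagocyte oxidase and lysosome 11 were negative, with a median of -0.209. The lysosomal protease CTSZ was 9.78 ± 0.35 (SD) in the 7 stem cells animals and 10.30 ± 0.26 (SD) in the 6 saline animals, with all 7 stem cells animals below the saline mean. Its difference was -0.51 ± 0.17 (SE; adjusted p of 0.414 by limma). CD63 and GRN, also lysosomal, had -0.21 ± 0.10 and -0.43 ± 0.23, and many cell types express all 3. Of 10 tested genes shared by white blood cells 9 were negative, with a median of -0.289. CORO1A, an actin regulator of leukocytes, had -0.25 ± 0.13, ARHGDIB -0.41 ± 0.28 and RGS10 -0.32 ± 0.23.

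Markers of other cells that a biopsy could hold gave these values beside the members. Of 13 T cell and NK cell genes with a probe set, 9 were too dim to be tested, among them CD3D with a mean of 2.34 and CD3E with 2.64. The list of the 4 tested ones averaged 3.34 to 4.03 in stem cells animals and 3.56 to 4.2 in saline animals. CCL5, a chemokine of T cells, had -0.35 ± 0.13 (SE, unadjusted p of 0.0167, adjusted p of 0.423 by limma), at a mean close to the filter level. Of 3 mast cell genes, a cell type that also uses FCER1G, 2 were negative, with a range of -0.354 to 0.17. Of 10 endothelial genes 7 were negative, with ENG at -0.65 ± 0.29, ESAM at -0.51 ± 0.29 (-0.33 without stem cells replicate 6) and TEK at 0.38 ± 0.17. Of 16 fibroblast and matrix genes 7 were negative, and the list averaged 7.81 to 9.56 in stem cells animals and 8.04 to 9.91 in saline animals. Of 7 smooth muscle and pericyte genes 5 were negative, with MYL9 at -0.88 ± 0.21, CNN1 at -1.54 ± 0.69 and MCAM at -0.78 ± 0.42. In each of these lists 0 genes passed (limma). Their part in the member differences was not tested. The fibroblast and matrix mean entered the covariate above, which could hardly move a group difference.

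**Figure D5:**
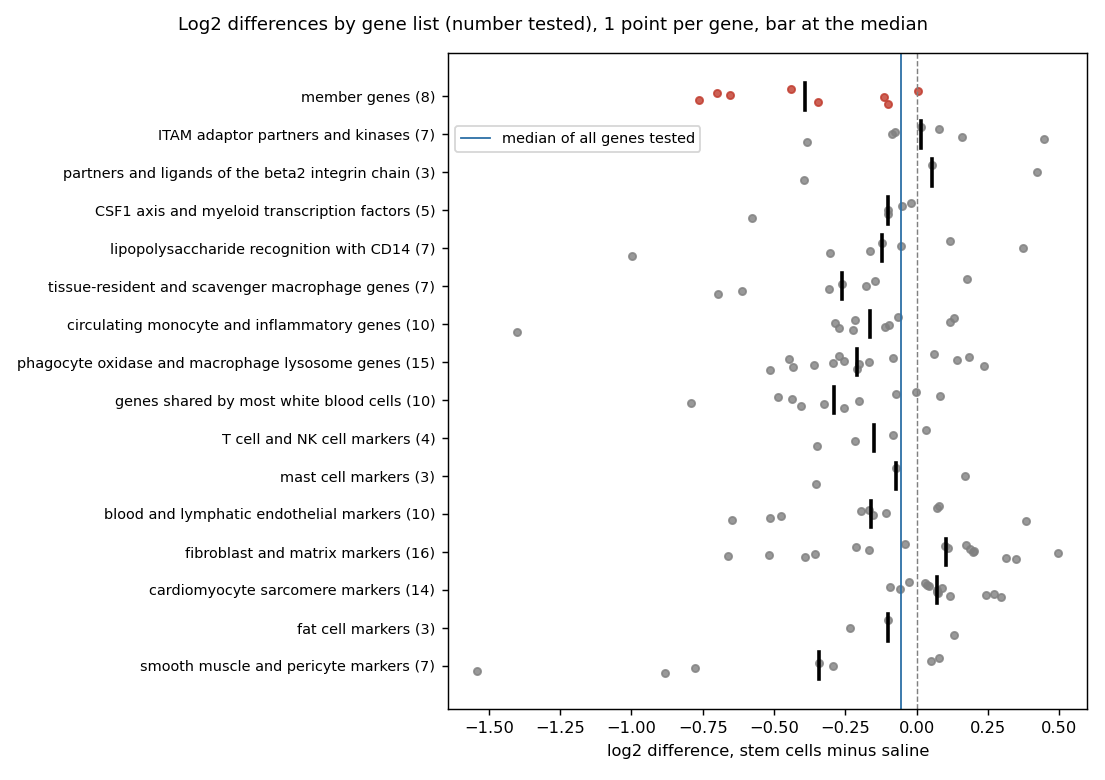
Log2 difference, stem cells minus saline (horizontal axis), of every tested gene in the lists with 3 or more tested genes, with 1 point per gene, a black bar at each list's median and a blue line at the median of all genes tested (-0.0539). The member genes, in red at the top, have a median of -0.393, and the white blood cell and smooth muscle lists have medians of -0.289 and -0.341.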

How the data were processed

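The authors deposited 1 table of probe set intensities on a linear scale for 13 arrays, and the submitters' processing notes name GCRMA. This method corrects background, normalizes between arrays and summarises probes, which removes any shift common to most genes. For its version and settings: not given in the sources used here. Of 24123 probe sets, 124 controls were left out. Platform annotation, which can be old, gave 10069 of the other 23999 1 symbol, 198 several and 13732 none, and probe sets with several were not named. Intensities were put on the log2 scale, and the 14399 probe sets with a mean above the 40th percentile were tested.

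Groups were compared with limma 3.58.1 in R 4.3.3 (lmFit, eBayes with trend), with Benjamini-Hochberg adjustment over all probe sets tested and a threshold of 0.05. The median SE was 0.18; precision is limited by the number of arrays. In simulated data of 14399 probe sets with 200 changed, 15.5% of changes of 0.5, 71.3% of changes of 1 and 95.2% of changes of 2 were recovered. These shares are for 200 changes planted together over all probe sets. With 0 called in the arrays the adjusted threshold was stricter, and member SEs ran from 0.19 to 0.39. The shares therefore do not tell how often a change in a member would be found. Correlations used 100000 permutations, or all orders within a group; exact tests of group differences used all 1716 splits. Both scripts were tested on simulated data.

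Named genes were all members, up to 3 genes with the smallest p in a list, and the 12 genes most like the members. Markers named as too dim (ITGAM, CCR2, CD3D, CD3E) and the genes most like single members were chosen after their values were seen. So were TLR4, MYD88, LYVE1 and PLEK. Members and lists were chosen with earlier results of these data known. GAPDH and actin 3' to 5' ratios did not differ past the threshold either (exact permutation p of 0.959 and 0.664). The labels give no batch or date. Nothing said that replicate numbers pair animals. Alternatives were other filters, normalizations, variance models, a covariate, a replicate block and leaving out each animal.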

Additional observations from a re-analysis of the deposited data

How the results depend on the processing

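Across 25 alternatives 0 member probe sets passed, and 0 passed among the other list genes. Over all probe sets 1 passed without saline replicate 5 and 0 in the other fits. TYROBP, FCER1G, ITGB2, AIF1 and LAPTM5 were negative in every alternative that tested them, TYROBP between -0.94 and -0.61, and the median of the 8 genes ran from -0.531 to -0.262 with 1 animal left out. CD14, near 0, changed sign with quantile normalization (-0.0154), median centring (-0.00531), the replicate block (-0.0912) and the tissue covariate (-0.00806), and with 1 animal left out it ran from -0.194 to 0.123. With 1 animal left out the brighter CD163 probe set ran from -0.423 to 0.225 and MRC1 from -0.32 to 0.0619. The count of 4 correlated pairs was 3 to 6 with 1 animal left out, 0 within saline alone, where 6 animals allow no exact p under 0.00139, and 2 without the 2 animals farthest from the median. The replicate block, for numbers shared by 6 animals of each group, left 0 member calls and TYROBP at -0.776; deviations of same-numbered animals correlated at -0.266 to 0.237, so the numbers were not taken as pairs.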
